A study of Mus musculus with 46 samples.

Results

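10 genes of the AP-1 and ETS transcription factor families were followed in the livers of mice on a lipid-rich diet (LD) or a carbohydrate-rich diet (CD). The 10 symbols, Jun, Junb, Jund, Fos, Fosl2, Atf3, Ets1, Ets2, Elf3 and Ehf, were given as a list and looked up in the gene table, where each filled 1 of 25494 rows. All 10 passed the filter on low counts, along with 13494 rows in all. Male C57BL/6 mice were used. They ate a diet with 60% of its calories from lipid, 20% from carbohydrate and 20% from protein (LD, labelled high fat diet) or with 10% from lipid, 70% from carbohydrate and 20% from protein (CD, labelled low fat diet) for 20 weeks. RNA-seq was made from 5 livers per diet, ChIP-seq of H3K27ac from 3 samples per diet, ChIP-seq of each of the factors Hnf4α and C/EBPα from 2 samples per diet, and promoter capture Hi-C from 2 samples per diet that the authors pooled into 1 interaction list per diet. There was no group on ordinary chow, so each difference is between the 2 diets. The samples are whole liver, in which hepatocyte markers dominated: the summed level of 8 hepatocyte genes was 81300 to 99000 CPM (counts scaled to the library size) on LD and 88900 to 106000 CPM on CD. In whole tissue, fewer cells of a type and less RNA per cell cannot be told apart.

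AP-1 is a dimer of basic leucine zipper proteins, in which a Jun protein (Jun, Junb, Jund) pairs with itself or with a Fos protein (Fos, Fosl2) or an ATF protein (Atf3) and binds short palindromic sites. Jun and Fos are immediate early genes that are transcribed within minutes of a growth or stress signal through MAP kinases, and Atf3 is a stress-induced repressor and activator known from injured and steatotic liver. ETS factors share a winged helix domain that reads a purine-rich core. Ets1 and Ets2 act downstream of Ras and MAP kinase signals, and Elf3 and Ehf belong to the epithelial ETS subfamily.

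Transcripts of 3 of the 10 genes were higher on LD and 0 were lower. Atf3 and Jun rose with no overlap between diets, Jund rose by less and with overlap, and the 4 ETS genes did not pass both thresholds. A gene was called at an adjusted p under 0.05 and a fold change above 1.2 in the quasi-likelihood test of edgeR, adjusted by the Benjamini-Hochberg method over all 13494 rows, from which every log2 fold change, standard error and adjusted p of a transcript below comes. Of all rows, 13.8% were called higher on LD and 11.1% lower. The libraries held 31707963 to 39012699 counts each. The labels give each library as a separate sample of its diet, and the paper states that RNA came from 5 animals per diet. These tests therefore measure the spread between animals.

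**Figure D1:**
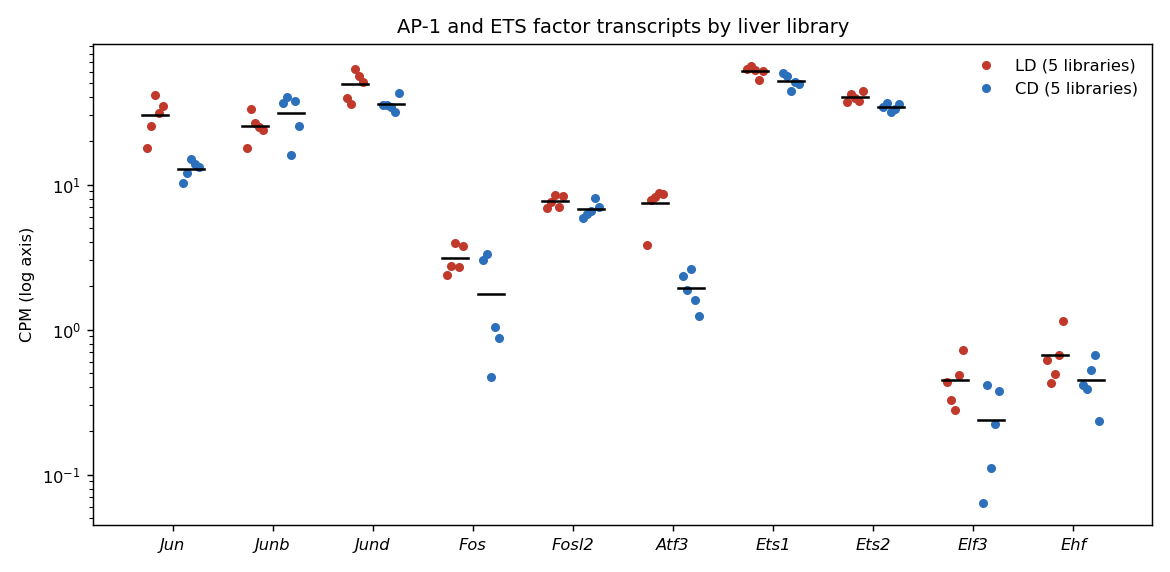
CPM of each transcript in each RNA-seq library on a log axis, with LD in red and CD in blue (5 libraries each) and a bar at the mean. For Atf3 the LD libraries lie between 3.82 and 8.76 and the CD libraries between 1.25 and 2.63, while Junb, Fosl2, Elf3 and Ehf overlap.

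Jun (Entrez 16476, chr4:94715727-94718913 on the minus strand of mm9) encodes the founding AP-1 subunit. Its level was 17.9, 25.3, 41.4, 31.1 and 35.1 CPM in the LD libraries and 10.3, 12.1, 15.1, 13.8 and 13.2 CPM in the CD libraries. Every LD library was above every CD library, and the LD libraries were more widely spread. The means were 30.2 ± 9.03 and 12.9 ± 1.81 CPM (SD, n = 5 each). The log2 fold change reached 1.23 ± 0.198 (SE, adjusted p = 0.00118). The call held in each of the 10 fits that left out a library, with log2 fold changes from 1.09 to 1.37.

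The 250 bases before the start of Jun are shown because Jun is known to act on its own promoter through a variant AP-1 site. They are chr4:94718914-94719163 of mm9, read on the minus strand, and lie inside the overlapping gene BC042782, outside its exons. Capitals mark the only match to the searched motifs, TGACATCA, from base -45 to base -38 counted from the start of the gene. The motif, on either strand, was found in 2.38% of 24655 such windows.
Jun upstream: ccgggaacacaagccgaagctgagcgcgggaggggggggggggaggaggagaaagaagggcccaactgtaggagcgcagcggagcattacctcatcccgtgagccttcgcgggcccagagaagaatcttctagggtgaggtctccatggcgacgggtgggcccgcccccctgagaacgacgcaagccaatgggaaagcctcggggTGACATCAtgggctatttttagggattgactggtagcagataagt

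Jund (Entrez 16478, chr8:73221638-73224515, plus strand) encodes the Jun protein that resting cells also carry. It stood at 39.9, 36.1, 62.8, 56.5 and 51.4 CPM on LD and at 35.2, 35.3, 34.6, 31.6 and 43 CPM on CD. LD replicates 1 and 2 lay below CD replicate 5, and the other LD libraries above all CD libraries. The means were 49.3 ± 11.2 and 36 ± 4.2 CPM (SD, n = 5 each). The log2 fold change reached 0.45 ± 0.143 (SE, adjusted p = 0.0328). Its call did not survive 7 of the 10 fits with 1 library removed, those without LD replicate 3, 4 or 5 and without CD replicate 1, 2, 3 or 4, in which the adjusted p reached 0.0793, and against a tested fold change of 1.2 (adjusted p = 0.199).

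Junb (Entrez 16477, chr8:87500808-87502647, minus strand) encodes a Jun protein that can restrain Jun. Its libraries were at 18, 33.1, 26.8, 25.1 and 24 CPM on LD and at 36.6, 40.3, 16.1, 37.9 and 25.4 CPM on CD. The diets overlapped and the lowest library was CD replicate 3. The log2 fold change reached -0.30 ± 0.246 (SE, adjusted p = 0.405).

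Fos (Entrez 14281, chr12:86814851-86818219, plus strand) encodes the classic partner of Jun. Its level was 2.38, 2.74, 3.97, 2.7 and 3.8 CPM on LD and 3.03, 3.34, 0.475, 1.05 and 0.873 CPM on CD. CD replicates 1 and 2 lay within the LD range and CD replicates 3, 4 and 5 below it. The log2 fold change reached 0.83 ± 0.452 (SE, adjusted p = 0.202), and rests on 550 counts in all on LD and 303 on CD. Fosl2 (Entrez 14284, chr5:32438845-32460212, plus strand), a Fos protein without the strong activation domain of Fos, ranged from 6.9 to 8.44 CPM on LD and from 5.93 to 8.1 CPM on CD. The diets differed by 0.18 ± 0.109 on the log2 scale (SE, adjusted p = 0.24).

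Atf3 (Entrez 11910, chr1:192994176-193007212, minus strand) had the highest fold change of the 10 genes. Its level was 3.82, 7.8, 8.16, 8.76 and 8.64 CPM on LD and 2.33, 1.88, 2.63, 1.59 and 1.25 CPM on CD. LD replicate 1 was the lowest LD library and still above every CD library. The means were 7.44 ± 2.06 and 1.93 ± 0.552 CPM (SD, n = 5 each). The log2 fold change reached 1.94 ± 0.245 (SE, adjusted p = 0.000158). It was called in all 10 fits that left out a library, with log2 fold changes from 1.82 to 2.10.

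The upstream windows of Atf3 and Fos, 2 genes that are known to respond to signals at their promoters, are shown for comparison with that of Jun, and that of Jund because it was also called. The annotated UTR bases nearest the start were left off where a GENCODE transcript begins upstream. They are chr1:193007220-193007462 (minus strand), chr12:86814601-86814839 (plus strand) and chr8:73221388-73221637 (plus strand) of mm9. Capitals mark a match to TTGCNNAA, a C/EBP motif found in 8.91% of the windows, and the Atf3 and Fos windows held no match to any of the searched motifs.
Atf3 upstream: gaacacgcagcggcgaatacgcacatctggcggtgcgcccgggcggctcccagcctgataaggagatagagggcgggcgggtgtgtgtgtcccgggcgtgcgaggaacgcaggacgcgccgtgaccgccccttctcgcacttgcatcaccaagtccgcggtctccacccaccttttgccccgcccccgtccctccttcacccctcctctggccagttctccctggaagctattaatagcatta
Fos upstream: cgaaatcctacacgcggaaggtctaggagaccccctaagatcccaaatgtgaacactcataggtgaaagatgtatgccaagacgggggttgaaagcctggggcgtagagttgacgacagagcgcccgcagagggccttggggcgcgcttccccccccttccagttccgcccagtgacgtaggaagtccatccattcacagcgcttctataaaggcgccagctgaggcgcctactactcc
Jund upstream: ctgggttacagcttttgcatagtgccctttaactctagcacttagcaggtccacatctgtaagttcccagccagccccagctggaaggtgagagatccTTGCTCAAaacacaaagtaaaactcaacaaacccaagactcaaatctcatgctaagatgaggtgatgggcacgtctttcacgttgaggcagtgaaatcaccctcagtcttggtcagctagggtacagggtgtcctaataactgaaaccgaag

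The motifs searched on both strands of the 250 bases before each start were TGANTCA for AP-1 (6.2% of windows), TGACGTCA (2.03%), TGACATCA (2.38%), CCGGAAG for ETS factors (8.57%), TTGCNNAA for C/EBP (8.91%) and the CArG box of serum response factor (1.33%). Beside Jun and Jund, Ehf held a match, to TTGCNNAA, and the other 7 windows held none. A window without these letters says nothing of binding by other sequences or farther away.

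Ets2 (Entrez 23872, chr16:95924014-95942656, plus strand) was at 37.2, 42, 39.9, 38 and 44.1 CPM on LD and at 34.4, 36.8, 31.9, 33 and 35.8 CPM on CD. Each LD library was above each CD library, yet the fold change of 1.17 was under the threshold of 1.2 (0.23 ± 0.0677 on the log2 scale, SE, adjusted p = 0.0229). Ets1 (Entrez 23871, chr9:32503627-32565405, plus strand) had means of 60.7 ± 4.82 and 52.1 ± 5.61 CPM (SD, n = 5 each). The diets differed by 0.22 ± 0.0823 on the log2 scale (SE, adjusted p = 0.0582), and the diets overlapped. Ets1 is known from lymphocytes and endothelial cells, and Ets2 is more broadly expressed. With limma on the deposited TPM values both were called higher on LD, which raised the count to 5 genes, of 8 tested on log2(TPM + 1) or log2(TPM + 0.1) and of 10 with all rows above 0. Those fits called 16.5%, 16.9% and 11.3% of all rows higher on LD and 5.6%, 5.74% and 3.61% lower. Their median log2 fold changes over all rows were 0.057, 0.066 and 0.022, against -0.002 in edgeR, so they leaned towards LD as a whole. In edgeR, Ets1 passed both thresholds once LD replicate 4 (adjusted p = 0.0255) or CD replicate 1 (adjusted p = 0.0287) was removed, and Jund did not pass in those fits.

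The epithelial ETS genes had the fewest counts of the members. Elf3 (Entrez 13710, chr1:137150151-137155049, minus strand) had 80 counts in all on LD and 42 on CD, and the diets differed by 0.88 ± 0.444 on the log2 scale (SE, adjusted p = 0.153). Ehf (Entrez 13661, chr2:103103590-103143353, minus strand) had 119 and 76 counts and the diets differed by 0.59 ± 0.338 on the log2 scale (SE, adjusted p = 0.214).

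**Figure D2:**
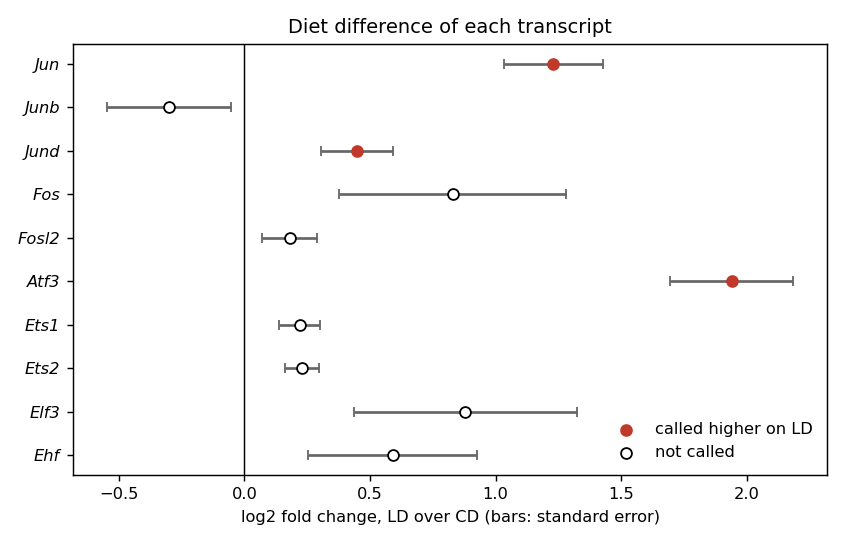
Log2 fold change of each transcript, LD over CD, with its standard error from edgeR. Filled red points mark the 3 called genes, Atf3 at 1.94, Jun at 1.23 and Jund at 0.45.

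Compared per length, on the deposited TPM scale, the genes spread over several levels. On LD the mean TPM was 32.5 for Jund, 26.1 for Junb, 22.8 for Ets1, 21.5 for Ets2 and 18 for Jun, and each neighbour in that order overlapped the next. Atf3 followed at 7.14, below every Jun library, then Fos at 2.84 and Fosl2 at 2.49, which overlapped, and Elf3 at 0.432 and Ehf at 0.295, which overlapped too. The lowest Atf3 library (3.65) lay just below the highest Fos library (3.74). On CD Junb was first at 30.5, followed by Jund at 22.4, Ets1 at 18.5 and Ets2 at 17.4, which overlapped, and Jun at 7.28, which did not reach them. Atf3 lay between 3.65 and 9 TPM on LD, above all Fosl2 libraries (2.18 to 2.92). On CD it lay between 1.14 and 2.42 TPM, within reach of Fosl2 (1.71 to 2.53).

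Once the mean of each diet was removed, some members varied together over the 10 libraries. The 6 pairs with the highest Pearson's r of the log2 CPM were Fos and Ets1 (0.751, Spearman's rho 0.745), Junb and Fos (0.743, rho 0.661), Junb and Ets1 (0.67, rho 0.612), Jun and Jund (0.662, rho 0.552), Jun and Fosl2 (0.642, rho 0.733) and Jun and Atf3 (0.571, rho 0.358). These are descriptions of 10 libraries that share their depth and composition. The genes most like a called member by the same measure were Arpin (0.931), Mvp (0.924) and Rab34 (0.924) for Jun, Tomm40l (0.941), B3galt6 (0.94) and Pgm1 (0.899) for Atf3, and Axin2 (0.963), Slc22a29 (0.948) and Slc22a27 (0.941) for Jund.

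Lists of related genes were counted beside the members, with a median log2 fold change of 0 over all rows tested. The lists were chosen with earlier results of these data known, and 13.8% of all rows were called higher on LD and 11.1% lower. Of 17 other AP-1 and bZIP partners tested, 2 rose and 2 fell, with a median of -0.01. Maff (log2 fold change 0.83, adjusted p = 0.000549) and Mafk (0.55, adjusted p = 0.00981), small Maf proteins, rose. Atf4, the effector of the integrated stress response, fell by 0.37 on the log2 scale (adjusted p = 0.00162) and Atf7 by 0.42 (adjusted p = 0.0433). Those 2 became 1 without LD replicate 3 or 4 or CD replicate 2, 3, 4 or 5. Of 17 other ETS factors, 2 rose and 1 fell, with a median of -0.02. Spi1, the macrophage and B cell factor PU.1, rose (0.72, adjusted p = 0.0303), as did Fli1 (0.43, adjusted p = 0.0419), while Elk4 fell by 0.38 on the log2 scale (adjusted p = 0.00416). The 2 risers became 0 without CD replicate 3, 4 or 5, and 1 without LD replicate 1, 2 or 4 or CD replicate 1 or 2. Without CD replicate 5, 2 of these factors fell.

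Of 24 genes of MAP kinase signalling, 1 rose and 2 fell, with a median of -0.03. Mapk3, which encodes ERK1, rose (0.30, adjusted p = 0.0263). Egfr, the receptor of epidermal growth factor, fell from 895 ± 173 to 165 ± 91.5 CPM (SD, n = 5 each, log2 fold change -2.44, adjusted p = 0.002), and Braf fell by 0.29 on the log2 scale (adjusted p = 0.0481). Of this list 0 rose without LD replicate 4 or 5 or CD replicate 3 or 4, 2 rose without LD replicate 1, and 1 fell without LD replicate 2, 3 or 4 or CD replicate 2, 3, 4 or 5. Of 13 MAP kinase phosphatases and feedback inhibitors, 3 rose and 1 fell, with a median of -0.01. The risers were Dusp2 (1.97, adjusted p = 0.00146), Dusp8 (1.46, adjusted p = 0.00651) and Dusp10 (0.74, adjusted p = 0.00331), and Spred2 fell by 0.51 on the log2 scale (adjusted p = 0.00242).

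Among 21 immediate early genes 5 rose and 2 fell, with a median of 0.23. The 3 with the largest rise were Egr2 (2.61, adjusted p = 0.000417), Btg2 (1.11, adjusted p = 0.000118) and Gadd45b (1.06, adjusted p = 0.0132), while Klf2 fell by 0.56 on the log2 scale (adjusted p = 0.0118) and Ier2 by 0.38 (adjusted p = 0.0313). Only 1 fell without LD replicate 1, 3 or 5 or CD replicate 2 or 4. Of 13 genes of the integrated stress response, 4 rose and 0 fell, with a median of 0.54, led by Slc7a11 (3.50, adjusted p = 0.000451), a cystine transporter, Gdf15 (2.01, adjusted p = 0.0137) and Fgf21 (1.36, adjusted p = 0.0264). With the replicate number as a block 2 of them rose, and with limma on log2(TPM + 0.1) 6 did.

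Of 19 textbook targets of AP-1 or ETS factors, 13 rose and 0 fell, with a median of 0.97. Of all rows, 13.8% rose and 11.1% fell. Since this list too was chosen with earlier results known, the count is a description, and the activity of the factors was not tested. The largest changes were in Mmp12 (4.59, adjusted p = 0.00144) and Mmp13 (3.56, adjusted p = 0.00265), matrix metalloproteinases, and Timp1 (2.84, adjusted p = 0.000809), their inhibitor. Several of these genes are also transcribed by macrophages. Of 10 macrophage markers, 3 rose and 0 fell, with Trem2 at 2.55 (adjusted p = 0.00242), Cd68 at 0.96 (adjusted p = 0.00137) and Itgam at 0.90 (adjusted p = 0.0399), and the summed level of the list was 508 to 1350 CPM on LD and 403 to 807 CPM on CD. Of the other lists, 0 of 8 hepatocyte genes rose and 4 fell, 2 of 10 lymphocyte genes rose and 1 fell, 1 of 8 endothelial genes rose, 2 of 8 stellate cell genes rose and 1 fell, and 1 of 6 biliary genes fell. Their summed levels on LD and CD were 31 to 71.8 and 25.3 to 33 CPM for lymphocytes, 447 to 617 and 493 to 605 CPM for endothelial cells, 494 to 792 and 550 to 652 CPM for stellate cells, and 5.06 to 11.4 and 7.81 to 12.7 CPM for biliary cells. Every marker had counts on both diets. The part of other cell types in the changes of Jun, Atf3 and Jund was not tested.

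H3K27ac, a histone mark of active promoters and enhancers, covered more of the surroundings of 5 of the 10 genes on LD and of 0 on CD. The measure is the share of the gene body and 20 kb on either side that lies in a peak, and a gene was called when the 3 samples of one diet all lay above the 3 of the other. Of all genes with any cover, 20.9% were higher on LD and 5.3% on CD. Peaks covered 150 to 160 Mb of the genome in the LD samples and 140 to 145 Mb in the CD samples, and the part of that difference here was not tested. With 3 samples against 3 an exact permutation test cannot go below p = 0.1.

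Around Atf3 the LD samples had covers of 27.2%, 31.7% and 32.8%, and the CD samples of 20.7%, 18.9% and 15.8%. Around Ets2 the LD samples were at 27%, 39% and 37.9%, the CD samples at 22.9%, 21.9% and 17.1%. Those were the widest gaps in this window, with means of 30.5 ± 2.99% against 18.5 ± 2.47% and of 34.6 ± 6.62% against 20.6 ± 3.14% (SD, n = 3 each). Fos was at 33.2%, 38.3% and 35.5% on LD and at 28.6%, 30.9% and 23.1% on CD. Fosl2 was at 22.5%, 20.2% and 24.1% on LD and at 18.9%, 15.6% and 19.6% on CD, so that the nearest samples lay close together. Ets1 was at 62.3%, 62.5% and 64% on LD and at 56%, 59.7% and 45.6% on CD. Atf3 and Ets1 each depended on the window. Within 10 kb of the gene body the Atf3 samples overlapped, at means of 28% on LD and 24.6% on CD, and within 20 kb of the start site the Ets1 samples overlapped, at means of 59.2% and 53%, so that 4 genes were higher on LD in either window, where 18.1% and 17.8% of all genes were. By number of peaks Atf3 alone of the 5 stayed higher on LD, and Ets1 turned, with means of 11.3 peaks on LD and 15.3 on CD.

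The 2 other called transcripts had no such difference in cover. Jun was at 15.7%, 19.5% and 16.2% on LD and at 16.2%, 15.7% and 15.3% on CD, in 1 locus that spans its start in all 6 samples. Jund was at 40.3%, 33.9% and 36.2% on LD and at 38%, 39.8% and 36.7% on CD. Junb, Elf3 and Ehf also overlapped between the diets. Ehf stood at 1.25% in CD replicate 3 against 8.27% to 12% in the other samples.

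After overlapping peaks were merged and loci found in at least 2 samples kept, 38 H3K27ac loci lay near the 10 genes, of which 27 were in all 6 samples. Loci in all LD samples and no CD sample numbered 3, and the reverse 0. In the genome 3.13% of 50205 loci were of the first kind and 0.757% of the second. One was chr1:193023601-193026200, centred 17.7 kb upstream of the Atf3 start. The others were chr16:95906601-95908600, 16.4 kb upstream of Ets2, and chr16:95943201-95947200, centred 21.2 kb downstream of the Ets2 start and past the end of the gene.

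**Figure D3:**
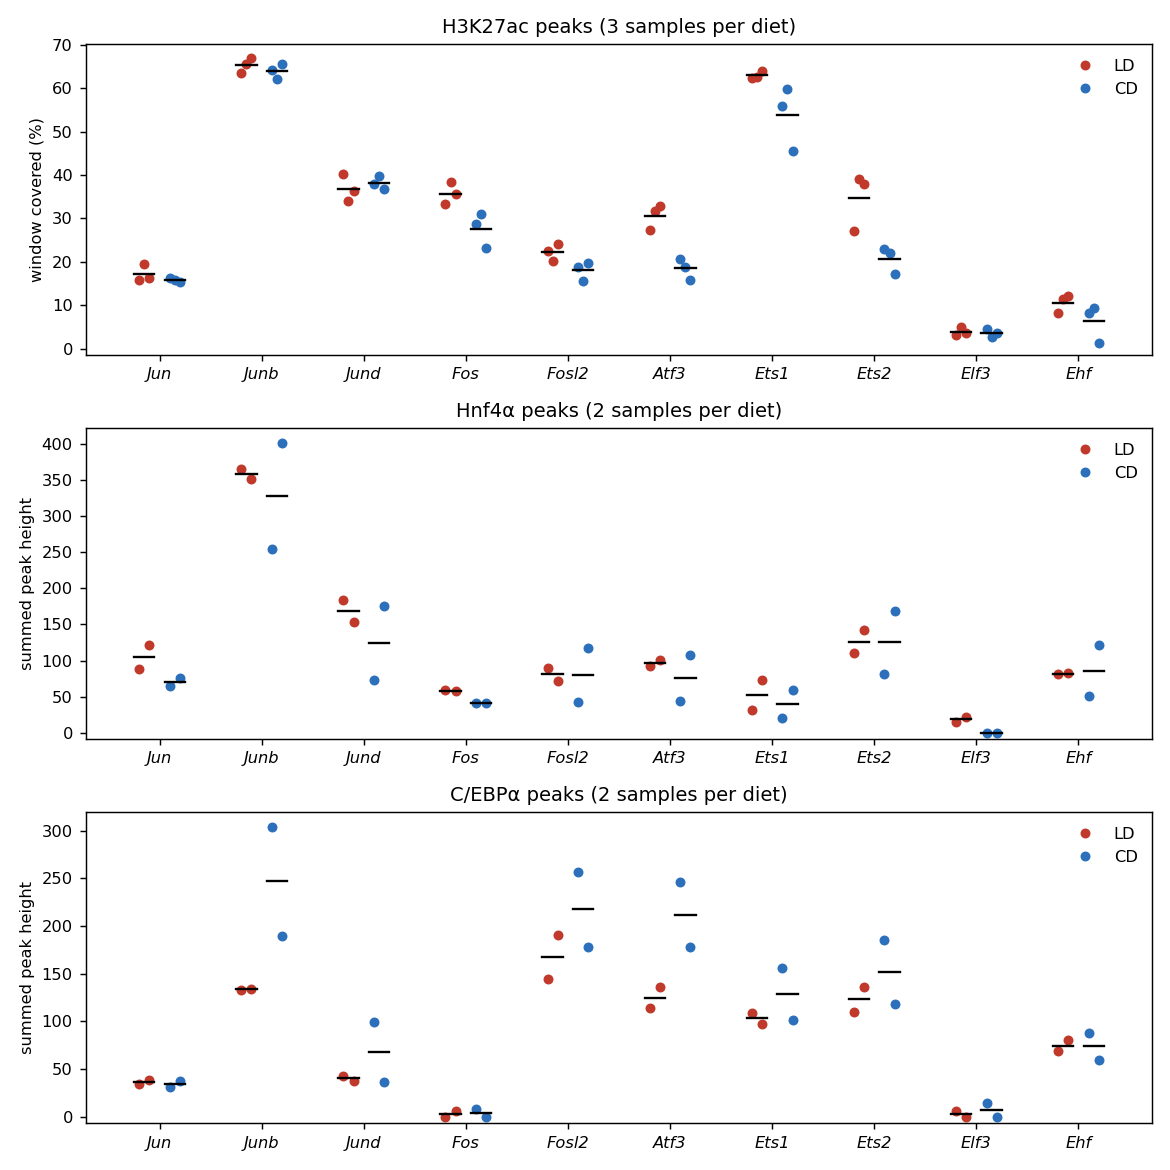
Share of the gene body and 20 kb covered by H3K27ac peaks (top), and summed normalized height of Hnf4α peaks (middle) and C/EBPα peaks (bottom) in the same windows, by sample, with a bar at the mean. H3K27ac separates the diets at Fos, Fosl2, Atf3, Ets1 and Ets2, and CD replicate 1 is the lower CD sample of Hnf4α at 8 of 10 genes.

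Hnf4α, a nuclear receptor that maintains hepatocyte identity, had higher summed peak heights on LD at 3 of the 10 genes and on CD at 0. The height is the tag count of a peak scaled by the peak caller to a common library size, and a gene was called when both samples of one diet lay above both of the other, and no test was made. Of all genes with a peak, 14.5% were higher on LD and 4.95% on CD. Jun stood at 87.7 and 122 on LD and at 64.2 and 76.2 on CD. Fos stood at 58.8 and 57.8 on LD and at 41.8 and 40.8 on CD. Elf3 stood at 15 and 21.7 on LD and had no peak in either CD sample. Elf3 overlapped within 50 kb of the gene body, where 13.1% of all genes were higher on LD, and had no peak with a height of at least 20. By number of peaks Jun and Fos overlapped, and Jund and Elf3 were higher on LD, where 9.7% of all genes were.

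CD replicate 1 had 35143 Hnf4α peaks, against 44247 to 47992 in the other samples, and a median height of 15.2 against 19.2 to 21.5. Jun, Fos and Elf3 were higher on LD without either CD sample. The other genes changed with the CD sample used: without CD replicate 1, 3 of the 10 genes were higher on LD and 5 on CD, where 15.5% and 60.6% of all genes were, and without CD replicate 2 all 10 were higher on LD, where 72.4% of all genes were. At Atf3 the heights were 92.8 and 101 on LD and 43.3 and 107 on CD, and at Jund 184 and 154 against 72.5 and 176. The highest Hnf4α loci of the called genes were chr4:94716652-94716934 in the transcribed part of Jun (48.2 and 48 on LD, 26.2 and 36 on CD), chr8:73203894-73204133, 17.6 kb upstream of Jund (72.2 and 64.2 on LD, 25 and 73.2 on CD), and chr1:192994425-192994668 over an annotated UTR of Atf3 (40.8 and 55.2 on LD, 26.5 and 53 on CD). The central 101 bases of the Jund locus, chr8:73203963-73204063 on the plus strand, are shown because it is the highest Hnf4α peak of a called gene that lies outside any annotated gene. They held no match to the searched motifs.
Jund Hnf4α peak: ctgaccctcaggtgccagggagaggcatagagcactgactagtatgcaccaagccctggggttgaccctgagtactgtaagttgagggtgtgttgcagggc

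Of 30 Hnf4α loci near the genes, 2 were found in both LD samples and no CD sample and 1 in both CD samples and no LD sample. They were chr5:32424451-32424683, 14.3 kb upstream of Fosl2 (8.75 and 7.75 on LD), chr1:137155051-137155355, just upstream of the Elf3 start (8.25 and 16.2 on LD), and chr16:95923821-95924118, over the Ets2 start (8 and 15 on CD). In the genome 7.49% of 45851 loci were found on LD alone and 3.96% on CD alone, and the heights of these 3 loci lay below the median height of every LD sample or, for Ets2, of every CD sample.

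C/EBPα, a bZIP factor of hepatocytes that can also pair with AP-1 proteins, went the other way at 2 of the 10 genes, which were higher on CD, and 0 were higher on LD. Of all genes with a peak, 33.9% were higher on CD and 9.2% on LD, so the members' count is not above that of all genes. C/EBPα peaks spanned more of the genome in the CD samples, 13.1 Mb (replicate 1) and 13.3 Mb (replicate 2). In the LD samples they spanned 9.07 Mb (replicate 1) and 9.87 Mb (replicate 2). The part of this difference in the heights below was not tested. The paper's own differential analysis found more C/EBPα sites enriched on LD than on CD. Atf3 stood at 114 and 136 on LD and at 246 and 178 on CD. Junb stood at 133 and 134 on LD and at 304 and 190 on CD. The peak over the start of Atf3, chr1:193006982-193007296, had heights of 65.5 and 76.5 on LD and 133 and 121 on CD. The Atf3 transcript was higher on LD, and a link between this peak and the transcript was not tested. The locus at Jun, chr4:94716648-94717038, had heights of 18.5 and 23.5 on LD and 24.5 and 18 on CD. At Jund the locus with the highest mean over all samples, chr8:73222501-73222879 inside the gene, had no peak and 10 on LD and 40 and 27.5 on CD. On LD the downstream locus chr8:73243854-73244168 was higher, at 16.5 and 17. Of 28 C/EBPα loci near the genes, 3 were found on LD alone (near Jun, Junb and Fosl2) and 2 on CD alone (near Jun and Junb), against 15.3% and 5.22% of all 33006. With the heights divided by the median of each sample 7 genes were higher on CD, where 45.8% of all genes were, and by number of peaks 0 were, where 13.1% of all genes were. Without CD replicate 1, 2 genes were higher on CD (48% of all) and 2 on LD (26.8% of all), and without CD replicate 2, 9 were higher on CD (65.9% of all) and 1 on LD (13.4% of all).

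Promoter capture Hi-C lists pairs of HindIII fragments, 1 of them holding a captured promoter, that touch more often than their distance predicts, with a CHiCAGO score of at least 5. Together the genes had 345 interactions, 310 on the LD list and 266 on the CD list, and 231 (67%) were on both. Of these, 22.9% were on the LD list only and 10.1% on the CD list only, against 23.5% and 22.7% of all 195691 interactions, of which 53.8% were on both. The replicates were pooled within a diet, and the lists used here give no replicate error. The median distance of the pooled interactions was 420 kb, against 242 kb for all interactions. By gene it was 669 kb for Jun, 411 kb for Fosl2, 348 kb for Ets1 and 290 kb for Junb. The medians of Jund, Elf3, Fos, Ehf and Ets2 were below 242 kb, from 20.8 kb (Jund) to 190 kb (Ets2).

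Jun, Fosl2 and Ets1 held most of them. The Jun fragment (chr4:94714688-94720159), which was captured under the name of BC042782 and also holds the start of Jun, had 94 interactions on LD and 90 on CD, 70 of them on both lists. Of the 17705 captured fragments that appear on either list, 99.7% had fewer interactions on LD and 99.5% on CD, and the median fragment had 4. Captured fragments without a listed interaction are not among them. Fosl2 (chr5:32436823-32440732) had 95 on LD and 69 on CD, of which 67 were on both, 28 on the LD list only and 2 on the CD list only. Scores of the interactions found on the LD list only had a median of 5.98, near the minimum of 5, and the highest score on 1 list only was 9.97. Ets1 had 54 on LD and 48 on CD, from a fragment at an upstream alternative start (chr9:32442391-32444098) and not from the start used for its counts.

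Fewer interactions were found for the other genes. Ets2 had 30 on LD and 27 on CD, Fos 18 and 14, Junb 5 and 8, Jund 5 and 4, Elf3 5 and 4 and Ehf 4 and 2. For Junb, the captured fragment (chr8:87498010-87502637) had 3 on LD and 6 on CD. The fragment that holds the Junb start (chr8:87502638-87504798) was not itself captured and had 2 on each diet, as the other end. Atf3, the transcript with the highest fold change, had 0 on either list. No listed fragment held its start, and whether that start was captured was not determined here, so the 0 does not show that contacts are absent.

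**Figure D4:**
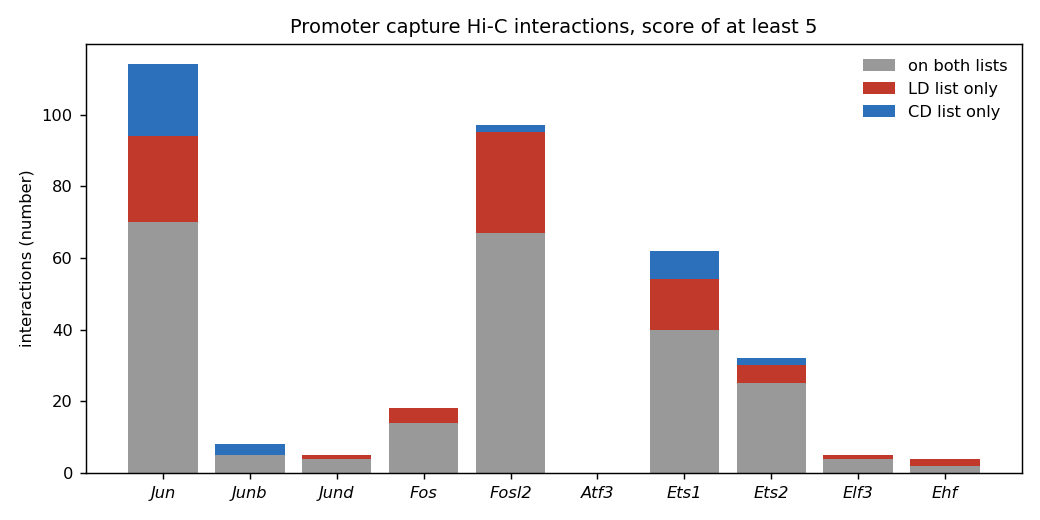
Number of promoter capture Hi-C interactions of each gene at a score of at least 5, stacked by the list they were found on. Jun (114), Fosl2 (97) and Ets1 (62) hold most of the 345. Atf3 has 0, with no listed fragment at its start, which may not have been captured.

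The interactions with the highest scores were found on both diets. For Jun the highest on LD was with chr4:95222214-95224342, 506 kb upstream at the start of Fggy, with a score of 22.83 on LD and 20.12 on CD. Its other end held H3K27ac peaks on both diets. On CD another Jun interaction scored higher, at 22.18. For Jund it was with chr8:73196546-73201051, 18.2 kb upstream at the start of Lsm4, with scores of 6.94 and 6.5. For Fosl2 the highest scored 26.09 and 26.14, at 440 kb, and for Fos 23.66 and 20.91, at 137 kb near Nek9. Junb also contacted the fragment of Ier2, another immediate early gene, 307 kb away, with scores of 5.27 on LD and 7.27 on CD.

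**Figure D5:**
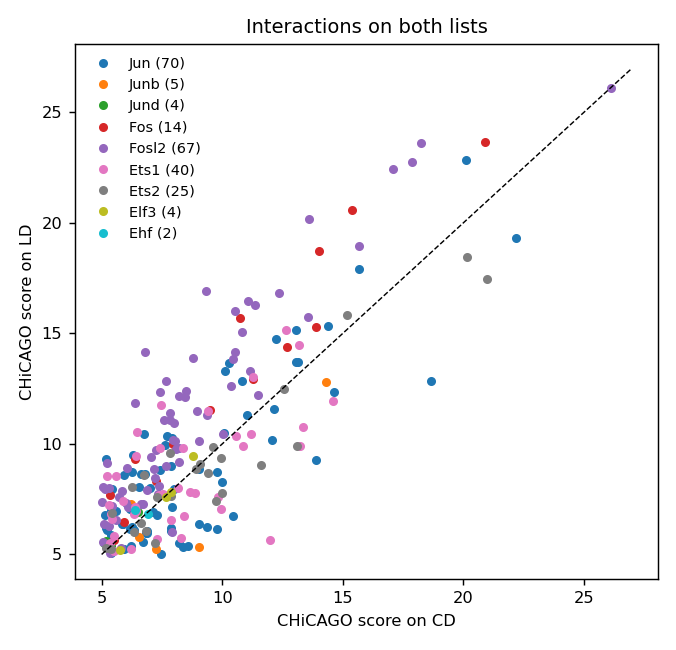
CHiCAGO score on CD (horizontal) and on LD (vertical) of the 231 interactions found on both lists, coloured by gene with the number of interactions in brackets. The dashed line marks equal scores, and the highest pair is Fosl2 at 26.14 and 26.09.

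Peaks at the other end of an interaction were counted when at least 2 samples of the diet held one there. H3K27ac was found at 39.0% of the 310 other ends on LD and 39.1% of the 266 on CD, against 31.2% and 30.6% of all interactions. Hnf4α was found at 10.3% and 10.5%, against 11.3% and 11.1%, and C/EBPα at 8.39% and 9.4%, against 9.16% and 8.72%. Interactions of 1 fragment share neighbours and are not independent, so no test was made.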

How the data were processed

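RNA-seq, H3K27ac, Hnf4α and C/EBPα ChIP-seq and promoter capture Hi-C of mouse liver were analysed; domain lists were not used. The members and gene lists were chosen with earlier results of these data known. Per the study's methods, read pairs were mapped to mm9 with STAR and the authors counted them per RefSeq gene by strand with featureCounts 1.5.0-p1, giving the deposited counts and TPM values. The submitters' processing notes list Bowtie 0.12.8 and Picard 1.110. The authors deposited H3K27ac peaks as SICER intervals with no value, Hnf4α and C/EBPα peaks as HOMER tag counts scaled to a common library size (the signal used here), and interactions as a CHiCAGO score at 5 or more and within 1 Mb. The TPM table also holds the authors' own fold changes and FDR, which were not used.

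Counts were tested in edgeR 4.0.16 (R 4.3.3; TMM, filterByExpr, robust quasi-likelihood fit). DESeq2 1.42.0 and limma 3.58.1 were alternatives, as were other scalings, filters, windows, score minimums and leaving out each sample. CPM used TMM library sizes. Named genes were the 10 members, up to 3 called genes per list and direction with the largest change, the 3 genes most like each called member, loci found in all samples of one diet only, the highest peaks and the interactions with the highest score. Ier2 beside Junb, and the peaks of Junb, were named after their values were seen. Windows and gene coordinates are mm9, and sequences were read from that genome. Scripts were tested on simulated data. Depth was 31707963 to 39012699 counts per RNA library, and 0 columns of other samples were left out.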

Additional observations from a re-analysis of the deposited data

Results flagged for a closer look

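One group held a library far from the others. Atf3 on LD was at 3.82 CPM in LD replicate 1, against 7.8 to 8.76 CPM in the other 4 libraries, a gap of 0.806 of the range, above Dixon's critical value for 5 samples. It lay nearer to the CD libraries, yet above each of them. Of 46 groups of libraries examined this was the only one past that value, and chance flags about 1 in 20 groups.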

How the results depend on the processing

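Jun and Atf3 were called higher on LD in all 20 alternatives. The count of 3 called genes became 5 with limma on log2(TPM + 1), on log2(TPM + 0.1) and on all rows above 0, and 2 to 3 with a library left out, where Ets1 took the place of Jund without LD replicate 4 or CD replicate 1. With the replicate number as a block 3 genes were called. After the diet means were removed, same-numbered libraries correlated between -0.073 and 0.188. Differently numbered libraries were not compared, so whether the same number stands for a shared batch was not tested. Over all genes, limma on log2(TPM + 1) called 2107 higher and 714 lower, against 1859 and 1498, and the test against a fold of 1.2 called 919 and 459. Of the gene lists, the 3 MAP kinase phosphatases and feedback inhibitors that rose became 1 with limma on log2(TPM + 1). The 2 lymphocyte genes that rose became 0 without CD replicate 2 and 1 without LD replicate 1 or 5 or CD replicate 1, 3, 4 or 5. Without CD replicate 2, 2 stellate cell genes fell in place of 1, and without LD replicate 2 1 endothelial gene fell in place of 0. The test against a fold of 1.2 called 0 of the other ETS factors and 1 riser among the AP-1 partners. The 5 genes with separate H3K27ac cover became 4 around the start site (without Ets1, 17.8% of all genes), 4 within 10 kb (without Atf3, 18.1%) and 2 by number of peaks (1 per diet, against 7.62% of all genes on LD and 1.77% on CD), where Ets1 turned to -4 peaks (LD minus CD). With a sample left out it was 5 to 7, the highest without LD replicate 1, when 6 were higher on LD (28% of all) and 1 on CD (9.95%). The 3 genes with separate Hnf4α height became 2 within 50 kb (Jun and Fos, 13.1% of all genes on LD) and 2 by number of peaks (Jund and Elf3, 9.7%), and with heights of at least 20 Ets1 took the place of Elf3 (11.7%). They became, both directions summed, 4 to 10 with a sample left out: 4 on LD without LD replicate 1 (24.5% of all genes) or 2 (28.6%), 3 on LD and 5 on CD without CD replicate 1 (15.5% and 60.6%), and 10 on LD without CD replicate 2 (72.4%). Elf3 turned to -19.6 in height within 50 kb. The 2 genes higher on CD for C/EBPα became 4 on CD around the start site (29.3% of all), 4 on CD and 1 on LD, together 5, within 50 kb (39.4% and 8.34%), 7 on CD by median-scaled height (45.8%) and 0 by number of peaks. With a sample left out both directions summed to 4 to 10: 3 on CD and 1 on LD without LD replicate 1 (40.5% and 19.5%), 4 on CD without LD replicate 2 (45.6%), 2 and 2 without CD replicate 1 (48% and 26.8%), and 9 and 1 without CD replicate 2 (65.9% and 13.4%). The share of interactions on both lists, 67%, was 88.9% at a score of at least 7, 98.9% at 10 and 94.2% when other ends within 5 kb counted as the same; over all interactions it was 53.8%, 85.1% at 7, 97.5% at 10 and, anchored at a captured end, 80.1% within 5 kb. Up to 500 kb it was 65.4%, against 56.4% of all. The cause of these shifts was not tested. Elf3 and Ehf rest on 42 to 119 counts per diet.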
